A study of Mus musculus with 14 samples.

Results

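The genes described here are 10 components of the circadian clock, taken by symbol (Arntl, Clock, Npas2, Per1, Per2, Per3, Cry1, Nr1d1, Nr1d2 and Dbp) from the 55401 genes counted in each of 14 samples. All 10 passed the filter on low counts and were tested together with the other genes, 17671 in all. RNA came from marrow plugs of the distal tibia of male mice, 24 weeks old by the labels and of a mixed C57BL6/SJL background, and each sample pooled 2 mice. The 4 groups were BMAd-Pnpla2+/+ mice fed ad libitum (AL, n = 4), BMAd-Pnpla2+/+ mice under 30% caloric restriction (CR, n = 4), and BMAd-Pnpla2-/- mice fed AL (n = 3) or under CR (n = 3). CR lasted 6 weeks, and the restricted ration was given once a day at about 6 pm, before the dark phase of a 12 h light and dark cycle. The hour at which marrow was collected is not given in the sources used here. A higher or lower level at 1 time point therefore cannot be told apart from a rhythm that was shifted in time.

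BMAd-Pnpla2-/- mice lack Pnpla2, which encodes the lipase that begins triglyceride breakdown, in bone marrow adipocytes (BMAds). In the study's model, a FLPo recombinase driven by Osterix turns a reversed Cre, placed in the endogenous Adipoq gene, into its active orientation, so that Cre acts in marrow adipocytes that descend from Osterix-expressing cells. By the study's account both genotypes carried the FLPo driver and the Cre insertion, mostly on both alleles, and differed in whether Pnpla2 was floxed. The insertion lowers adiponectin protein, and this is therefore shared by all 4 groups. In BMAd-Pnpla2+/+ mice Pnpla2 ranged from 174 to 301 CPM (counts per 1000000 counts, scaled by edgeR's TMM factors) with AL feeding and from 502 to 1015 CPM with CR. In BMAd-Pnpla2-/- mice it ranged from 131 to 170.1 CPM with AL feeding and from 177 to 267 CPM with CR. The difference between genotypes passed the test under CR (log2 fold change -1.90 ± 0.26 SE, edgeR adjusted p = 0.0386) and not under AL (-0.57 ± 0.25, adjusted p = 0.9996). Each library held 18898324 to 21665553 counts in genes. The plugs are bulk marrow, in which Pnpla2 is also read from other cells, and in which fewer cells of a type and less RNA per cell cannot be told apart.

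The mammalian clock is a transcriptional feedback loop that runs in nearly every cell. BMAL1, encoded by Arntl, pairs with CLOCK or its relative NPAS2 and binds E-boxes in the promoters of the Per and Cry genes, whose proteins return to the nucleus and repress that pair. A second loop is formed by the nuclear receptors REV-ERBα and REV-ERBβ (Nr1d1 and Nr1d2), which are themselves E-box targets and repress Arntl through elements that activating receptors such as RORα also bind, while DBP and its relatives carry the signal to output genes through D-boxes. Arntl is therefore known to peak at about the opposite time of day to Per, Nr1d1 and Dbp transcripts. In peripheral tissues the loop can be set by the time of feeding and by glucocorticoids, and Per1 is also a direct target of the glucocorticoid receptor.

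The E-box, the D-box, the letters AGGTCA and the cAMP response element were searched for in RefSeq promoter windows. These windows (GRCm38.p6, 250 bases before to 50 after each start) were at hand for 9 of the 10 genes, 13 windows in all. AGGTCA was matched without its flanks, so a match is not shown to be an element that the REV-ERB receptors bind. The stretches below are shown because they hold an E-box, a D-box or AGGTCA in 4 of the genes whose levels are compared next. They lie upstream of the start named in each case, are written 5′ to 3′ on the strand of the gene, and have in capitals the E-box CACGTG, the D-box TTATGTAA, or AGGTCA or its complement TGACCT. The Per1 stretch is chr11:69098763-69098837 (plus strand), within the Per1 gene and outside its annotated exons, ahead of a start at 69098949. The Cry1 stretch is chr10:85185089-85185134 (minus strand) and overlaps no gene. The Per3 stretch is chr4:151044796-151044890 (minus strand), outside exons and within the span of Camta1. The Nr1d2 stretch is chr14:18239158-18239203 (minus strand) and overlaps no gene.
Per1: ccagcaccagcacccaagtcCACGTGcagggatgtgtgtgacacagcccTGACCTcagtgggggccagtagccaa
Cry1: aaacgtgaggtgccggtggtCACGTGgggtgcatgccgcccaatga
Per3: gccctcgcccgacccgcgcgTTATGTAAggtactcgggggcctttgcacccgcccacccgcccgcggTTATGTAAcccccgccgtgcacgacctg
Nr1d2: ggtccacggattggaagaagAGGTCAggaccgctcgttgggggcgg

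The E-box occurred in 2 of the 13 windows, in Per1 (166 bases before the start) and in Cry1 (60 bases before it), and in 7.15% of all 32851 windows searched on both strands. The D-box occurred in 1 of the 13 windows, in Per3, at 205 and 158 bases before its start, and in 0.938% of all windows. AGGTCA occurred in 4 of the 13 windows (in Arntl, Clock, Per1 and Nr1d2) and in 16.3% of all windows, and the cAMP response element TGACGTCA in none of the 13 windows and in 1.79% of all windows. The windows of Npas2, Nr1d1 and Dbp held none of the 4 elements. These matches describe the letters of a short window and were not related to the levels.

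Under CR the clock genes of the marrow separated into those that were lower and those that were higher. In BMAd-Pnpla2+/+ mice, 8 of the 10 passed the test, against 26% of all genes tested. Arntl was lower, and Clock, Per1, Per2, Per3, Nr1d1, Nr1d2 and Dbp were higher. Of all genes, 15.1% were called higher and 10.9% lower. In BMAd-Pnpla2-/- mice, 6 of the 10 passed, against 11.6% of all genes. Arntl was again lower, with 5.57% of all genes called lower, and Clock, Per1, Per2, Per3 and Nr1d2 were higher, with 6.04% of all genes called higher. Averaged over both genotypes all 10 passed, against 34.7% of all genes, with Arntl and Npas2 lower (15.1% of all genes lower) and the other 8 higher (19.6% of all genes higher). The 3 CR against AL comparisons share samples and are not independent of each other.

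With the additional criterion of the study, a log2 fold change beyond 1 in either direction, 5 of the 10 genes passed in BMAd-Pnpla2+/+ mice (Arntl, Per1, Per3, Nr1d1 and Dbp, against 9.28% of all genes), 3 in BMAd-Pnpla2-/- mice (Arntl, Per1 and Nr1d2, against 3.53%) and 2 in the average (Arntl and Per1, against 7.35%). The median absolute log2 fold change in the average was 0.82 over the 10 genes and 0.27 over all genes, and the signed median over all genes was 0.02.

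**Figure D1:**
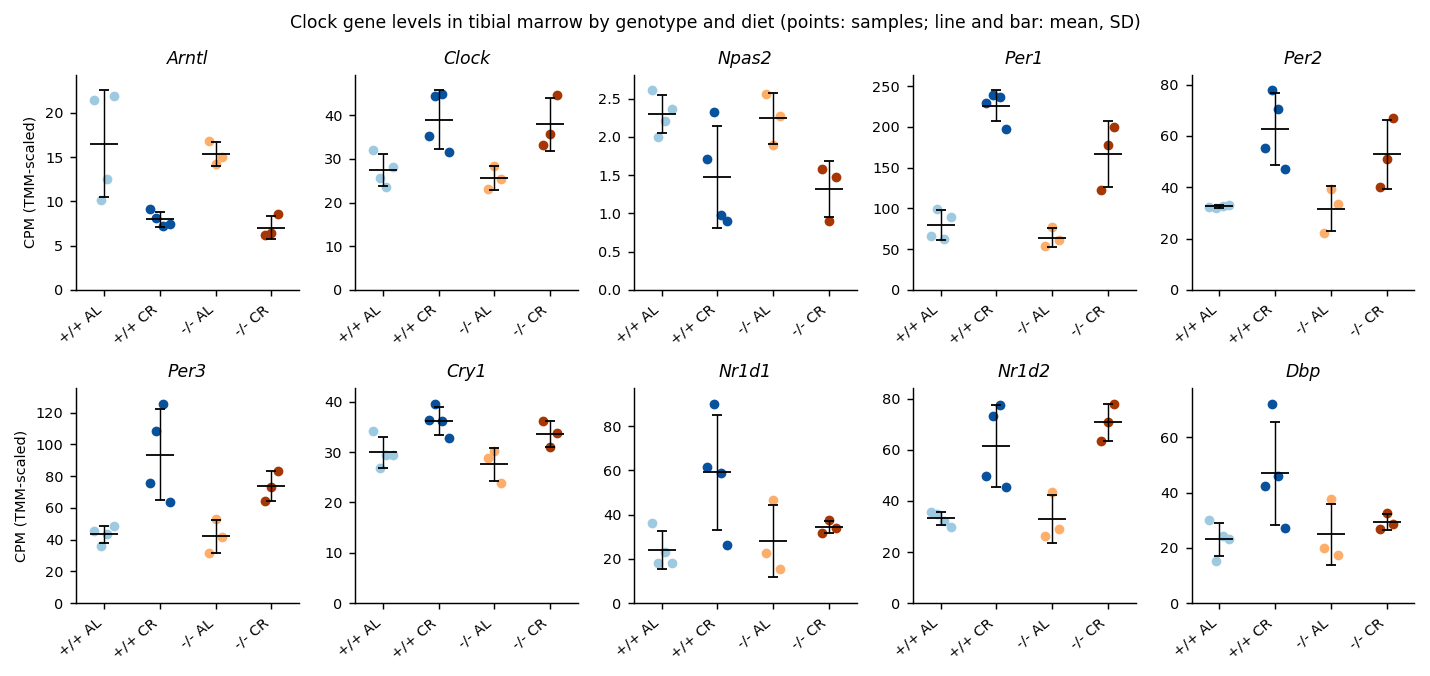
Level of each of the 10 clock genes in CPM (vertical axes, each starting at 0) in the 4 groups, where +/+ and -/- stand for BMAd-Pnpla2+/+ and BMAd-Pnpla2-/-, points are samples, and the line and bar give the mean and SD. All 7 CR samples lie above all 7 AL samples for Per1, Per2, Per3 and Nr1d2 and below them for Arntl, whereas CR and AL samples overlap for Clock, Npas2, Cry1, Nr1d1 and Dbp.

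For 5 of the 10 genes (Arntl, Per1, Per2, Per3 and Nr1d2) the 7 CR and the 7 AL samples did not overlap in CPM, as was the case for 7.98% of all genes. Within BMAd-Pnpla2+/+ mice the same count was 5 of 10, against 22.8% of all genes, and within BMAd-Pnpla2-/- mice, with 3 samples a group, it was 8 of 10, against 37.9%.

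Arntl is the non-redundant activator of the loop. Its level was 21.4, 10.2, 12.5 and 21.9 CPM in the BMAd-Pnpla2+/+ AL samples (replicates 1 to 4) and 9.10, 8.07, 7.16 and 7.49 CPM under CR. Among BMAd-Pnpla2-/- mice it was 16.8, 14.3 and 14.97 CPM under AL and 6.17, 6.36 and 8.53 CPM under CR. Every CR sample was below every AL sample, although the lowest AL sample, BMAd-Pnpla2+/+ replicate 2, stood close to the highest CR sample. These levels rest on 117 to 461 counts a sample. The fall was 2.07-fold in BMAd-Pnpla2+/+ mice (log2 fold change -1.05 ± 0.22 SE, adjusted p = 0.00640) and 2.18-fold in BMAd-Pnpla2-/- mice (-1.13 ± 0.26, adjusted p = 0.0180).

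CLOCK, the usual partner of BMAL1, was encoded at a higher level under CR. In BMAd-Pnpla2+/+ mice Clock was 32.1, 25.5, 23.6 and 28.2 CPM with AL feeding and 35.2, 44.5, 44.8 and 31.6 CPM with CR, where CR replicate 4 fell just below AL replicate 1. In BMAd-Pnpla2-/- mice it was 23.1, 28.4 and 25.4 CPM with AL feeding and 33.3, 35.7 and 44.7 CPM with CR, without overlap. The log2 fold changes of Clock in these genotypes were 0.51 ± 0.14 (adjusted p = 0.0206) and 0.56 ± 0.16 (adjusted p = 0.0418, and 0.0748 with no filter on low counts). Npas2, which can stand in for Clock, was scarce, with 17 to 54 counts a sample. Its mean was 2.30 ± 0.25 CPM (SD, n = 4) with AL feeding and 1.48 ± 0.67 CPM (n = 4) with CR in BMAd-Pnpla2+/+ mice, and the means were 2.24 ± 0.33 CPM and 1.32 ± 0.37 CPM (n = 3 each) in BMAd-Pnpla2-/- mice. Npas2 passed the test in the average alone (-0.70 ± 0.23, adjusted p = 0.0285), and within the genotypes adjusted p was 0.121 and 0.158. In the average the activators of the loop did not move as a group, since Arntl and Npas2 fell while Clock rose.

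Per1, a repressor of the loop that also responds directly to hormones, had the largest change of the 10 genes in the average. Its level was 66.2, 99.5, 62.3 and 89.4 CPM in BMAd-Pnpla2+/+ AL and 229.5, 238, 237 and 198 CPM in BMAd-Pnpla2+/+ CR samples. The BMAd-Pnpla2-/- samples had 54.1, 77.2 and 60.6 CPM under AL and 122, 177 and 200.1 CPM under CR. The lowest CR sample, BMAd-Pnpla2-/- replicate 1, was above the highest AL sample, BMAd-Pnpla2+/+ replicate 2. Per1 rose 2.84-fold in BMAd-Pnpla2+/+ mice (1.51 ± 0.18, adjusted p = 0.000571) and 2.61-fold in BMAd-Pnpla2-/- mice (1.38 ± 0.21, adjusted p = 0.00568).

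Per2 and Per3, the other two Period genes, rose by less. Per2 was 32.3, 31.8, 32.7 and 33.1 CPM in BMAd-Pnpla2+/+ AL, a group SD of 0.540, and 55.2, 77.7, 70.5 and 47.0 CPM in BMAd-Pnpla2+/+ CR samples. Per2 in BMAd-Pnpla2-/- mice was 22.1, 39.1 and 33.6 CPM under AL and 40.2, 51.1 and 67.1 CPM under CR. The lowest CR sample and the highest AL sample, both from BMAd-Pnpla2-/- mice, were close together, and the log2 fold changes were 0.95 ± 0.20 (adjusted p = 0.00607) and 0.74 ± 0.23 (adjusted p = 0.0498). The call in BMAd-Pnpla2-/- mice was lost with RLE size factors (adjusted p = 0.0569), with no filter on low counts (0.109) and with the compared groups alone (0.0853). Per3 was 45.2, 36.2, 43.2 and 48.4 CPM in BMAd-Pnpla2+/+ AL and 75.6, 109, 126 and 63.8 CPM in BMAd-Pnpla2+/+ CR samples. Per3 in BMAd-Pnpla2-/- mice was 31.9, 52.8 and 41.6 CPM under AL and 64.5, 73.4 and 83.4 CPM under CR. All CR samples were above all AL samples, with log2 fold changes of 1.11 ± 0.21 (adjusted p = 0.00400) and 0.81 ± 0.24 (adjusted p = 0.0430, and 0.113 with no filter).

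Cry1, which encodes the most potent of the repressors, had the smallest change of the 10 genes in the average. Its mean was 29.99 ± 3.10 CPM (SD, n = 4) with AL feeding and 36.2 ± 2.75 CPM (n = 4) with CR in BMAd-Pnpla2+/+ mice, and 27.6 ± 3.32 CPM and 33.6 ± 2.60 CPM (n = 3 each) in BMAd-Pnpla2-/- mice. The change did not pass the test within either genotype (0.27 ± 0.10, adjusted p = 0.0676 and 0.29 ± 0.12, adjusted p = 0.136) and passed in the average (0.28 ± 0.08, adjusted p = 0.0163).

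Both members of the stabilising loop were called higher under CR in BMAd-Pnpla2+/+ mice and in the average. In BMAd-Pnpla2-/- mice Nr1d2 alone passed, and the 2 genes were not tested against each other. Nr1d2 was 35.6, 34.9, 32.2 and 30.0 CPM in BMAd-Pnpla2+/+ AL and 49.9, 73.2, 77.3 and 45.3 CPM in BMAd-Pnpla2+/+ CR samples. The BMAd-Pnpla2-/- samples had 26.2, 43.5 and 29.1 CPM under AL and 63.5, 70.9 and 78.0 CPM under CR. No CR sample overlapped an AL sample, and Nr1d2 rose in both genotypes (0.89 ± 0.19, adjusted p = 0.00618 and 1.10 ± 0.21, adjusted p = 0.0109).

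Nr1d1 was more variable. It was 36.4, 18.3, 22.9 and 18.2 CPM in BMAd-Pnpla2+/+ AL and 61.3, 90.1, 58.8 and 26.3 CPM in BMAd-Pnpla2+/+ CR samples, so that CR replicate 4 lay below AL replicate 1. Nr1d1 in BMAd-Pnpla2-/- mice was 22.5, 46.5 and 15.6 CPM under AL and 31.8, 37.4 and 34.0 CPM under CR, and AL replicate 2 was above all 3 CR samples. The rise passed the test in BMAd-Pnpla2+/+ mice (1.31 ± 0.38, adjusted p = 0.0249, and 0.0818 with no filter on low counts), whereas in BMAd-Pnpla2-/- mice the value was 0.29 ± 0.43 (adjusted p = 0.703). In the average the value was 0.80 ± 0.28 (adjusted p = 0.0450). Without BMAd-Pnpla2-/- AL replicate 2 the BMAd-Pnpla2-/- value was 0.81, and without AL replicate 3 it was -0.04.

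Dbp encodes the output factor of the loop. Its level was 29.9, 15.1, 24.2 and 23.1 CPM in BMAd-Pnpla2+/+ AL and 42.4, 72.2, 46.0 and 27.3 CPM in BMAd-Pnpla2+/+ CR samples. Its BMAd-Pnpla2-/- values were 19.8, 37.6 and 17.5 CPM under AL and 26.9, 32.6 and 28.6 CPM under CR. The same 2 samples, BMAd-Pnpla2+/+ CR replicate 4 and BMAd-Pnpla2-/- AL replicate 2, crossed into the range of the other diet. Dbp rose in BMAd-Pnpla2+/+ mice (1.02 ± 0.30, adjusted p = 0.0263, and 0.0818 with no filter). Its log2 fold change in BMAd-Pnpla2-/- mice was 0.23 ± 0.34 (adjusted p = 0.697), and it was 0.61 there without AL replicate 2. In the average it was 0.63 ± 0.23 (adjusted p = 0.0474).

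**Figure D2:**
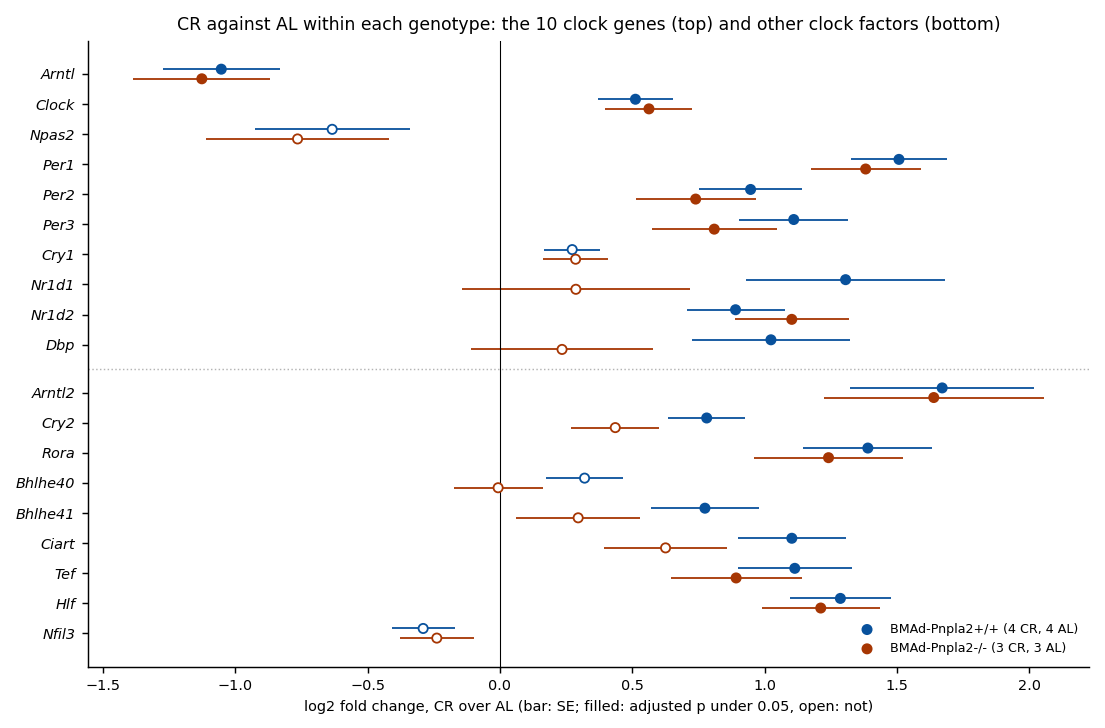
Log2 fold change of CR over AL (horizontal axis) within BMAd-Pnpla2+/+ (blue) and BMAd-Pnpla2-/- mice (brown) for the 10 clock genes above the dotted line and 9 other clock factors below it, with SE bars and filled points where the adjusted p was under 0.05. Nr1d1 and Dbp have the widest gap between genotypes among the 10 genes, 1.31 against 0.29 and 1.02 against 0.23, and their error bars are among the widest, with those of Npas2.

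The calls rested on few samples, and 14 further fits each left out 1 sample. Per1 passed in all 14 in either genotype. Within BMAd-Pnpla2+/+ mice, Arntl, Per2, Per3 and Nr1d2 also passed in all 14, Clock in 10, and Nr1d1 and Dbp in 9 each. Both of these lost the call without AL replicates 2, 3 or 4 or CR replicates 2 or 3 of that genotype, and Clock without AL or CR replicates 2 or 3. Within BMAd-Pnpla2-/- mice, Nr1d2 passed in 11 fits, Arntl in 10, Clock and Per3 in 6 each and Per2 in 4. There Nr1d2 lost the call without AL replicates 1 or 3 or CR replicate 3 of that genotype, and Arntl without these or CR replicate 2. Clock passed there only without BMAd-Pnpla2+/+ AL replicates 1 or 2, BMAd-Pnpla2+/+ CR replicates 2, 3 or 4 or BMAd-Pnpla2-/- CR replicate 1. Per3 passed only without BMAd-Pnpla2+/+ AL replicate 2, any BMAd-Pnpla2+/+ CR replicate or BMAd-Pnpla2-/- AL replicate 2, and Per2 only without BMAd-Pnpla2+/+ CR replicates 2 or 4, BMAd-Pnpla2-/- AL replicate 2 or BMAd-Pnpla2-/- CR replicate 1. In the average, Arntl, Clock, Per1, Per2, Per3 and Nr1d2 passed in all 14 fits, Cry1 in 12, Npas2 in 10, and Nr1d1 and Dbp in 3 each. Cry1 lost the call without AL replicate 3 of either genotype, and Npas2 without BMAd-Pnpla2+/+ CR replicate 3, BMAd-Pnpla2-/- AL replicates 1 or 3 or BMAd-Pnpla2-/- CR replicate 2. The averaged rise of Nr1d1 and Dbp passed only without BMAd-Pnpla2+/+ AL replicate 1, BMAd-Pnpla2+/+ CR replicate 4 or BMAd-Pnpla2-/- AL replicate 2.

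The comparison of genotypes asked whether loss of the adipocyte lipase altered the clock genes. Fed AL, none of the 10 genes passed edgeR's quasi-likelihood test (0% of all genes passed) or DESeq2's, which called 19 genes. None of the 10 had an unadjusted p under 0.05 with edgeR. The log2 differences, BMAd-Pnpla2-/- over BMAd-Pnpla2+/+, ran from -0.31 ± 0.19 for Per1 to 0.24 ± 0.40 for Nr1d1. Under CR, none of the 10 genes passed with edgeR (0.0113% of all genes) or with DESeq2, which called 1638 genes. Of the 10, 1, Per1, had an unadjusted p under 0.05 with edgeR (-0.44 ± 0.19, adjusted p = 0.194), as did 23.2% of all genes. The fitted level was lower in BMAd-Pnpla2-/- than in BMAd-Pnpla2+/+ mice for 9 of the 10 genes under CR, with -0.78 ± 0.41 for Nr1d1 and -0.68 ± 0.32 for Dbp. The exception was Nr1d2, at 0.20 ± 0.20. For Clock, at -0.04 ± 0.15, the sign turned with the deposited matrix (0.06). The median absolute difference under CR was 0.22 over the 10 genes and 0.25 over all genes. The signed median over all genes was -0.01, and the share of all genes that were lower was not computed. Since some of the 10 genes vary together within groups, the signs cannot be counted as independent. The BMAd-Pnpla2-/- CR libraries also differ in type from the others, as described below.

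A response to CR that differed between genotypes was tested as the interaction of genotype and diet. None of the 10 genes passed with edgeR (0% of all genes) or with DESeq2, which called 65 genes. None of the 10 had an unadjusted p under 0.05 with edgeR. For Nr1d1 and Dbp, which passed in BMAd-Pnpla2+/+ mice and not in BMAd-Pnpla2-/- mice, the difference of the 2 responses was -1.02 ± 0.57 (adjusted p = 0.544) and -0.79 ± 0.46 (adjusted p = 0.555). The responses of Nr1d1 and Dbp were thus not shown to differ between genotypes, and with errors of this size a difference as large as the whole response could have gone uncalled. For Arntl the difference was -0.07 ± 0.34 and for Per1 -0.13 ± 0.27.

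The strand of the libraries matters for Dbp and Nr1d1. In 11 libraries 4.30% to 4.62% of counts fell on the first strand, and in the 3 BMAd-Pnpla2-/- CR libraries 50.1% to 50.5% did, so these 3 held no strand. In the deposited matrix of counts, the 11 libraries carry reverse-strand counts and these 3 carry unstranded ones. Dbp (chr7:45705088-45710203, plus strand) shares 539 exonic bases, 18.01% of its exons, with Sphk2 on the other strand, and without strand a read that lies on both genes is counted for neither. In the 11 libraries with strand, the unstranded Dbp count was 69.9% of the reverse-strand count. For Nr1d1 (chr11:98767932-98775333, minus strand), which shares 263 exonic bases with Thra, it was 83.7%, and for the other 8 genes it was 98.4% to 105%. All values above used unstranded counts in every sample. The libraries without strand were all those of BMAd-Pnpla2-/- CR, so that library type and this group cannot be told apart in CR against AL within BMAd-Pnpla2-/- mice, in the genotypes under CR, in the average or in the interaction. CR against AL within BMAd-Pnpla2+/+ mice and the genotypes fed AL compare libraries of 1 type.

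From the deposited matrix, Dbp averaged 29.2 ± 2.98 CPM (SD) in the 3 libraries without strand, close to the 29.4 ± 2.91 CPM of the unstranded counts. In the other groups its mean was higher in the matrix than in the unstranded counts, at 34.8 ± 7.53 against 23.1 ± 6.09 CPM and 63.7 ± 23.1 against 46.98 ± 18.7 CPM in BMAd-Pnpla2+/+ mice with AL feeding and with CR, and 36.7 ± 13.8 against 24.96 ± 10.998 CPM in BMAd-Pnpla2-/- mice with AL feeding. The log2 fold change of Dbp under CR in BMAd-Pnpla2-/- mice then turned from 0.23 to -0.33 (adjusted p = 0.475), and the difference of genotypes under CR went from -0.68 to -1.12 and passed the test (adjusted p = 0.0213). The rise of Dbp in the average no longer passed with that matrix (0.27, adjusted p = 0.299), and neither did that of Nr1d1 (0.61, adjusted p = 0.0996). Within BMAd-Pnpla2+/+ mice, where every library kept its strand, reverse-strand counts called the same number of the 10 genes, 8.

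**Figure D3:**
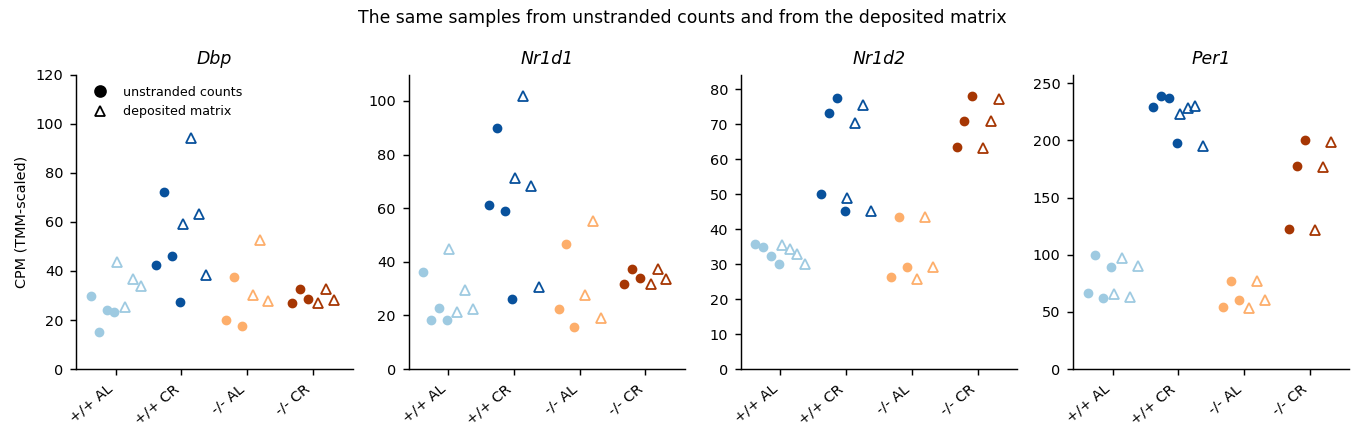
CPM of Dbp, Nr1d1, Nr1d2 and Per1 (vertical axes) by group, from unstranded counts in every sample (filled circles) and from the deposited matrix (open triangles). For Dbp the triangles lie above the circles in the 11 libraries with strand and beside them in the 3 BMAd-Pnpla2-/- CR libraries, for Nr1d1 the same holds by a smaller step, and for Nr1d2 and Per1 both sets lie together.

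A ratio of 2 genes within a sample does not depend on how the libraries were scaled to each other. Per kilobase of exon, the ratio of Per1 to Arntl was 4.13 to 13.1 in BMAd-Pnpla2+/+ AL and 33.7 to 44.2 in BMAd-Pnpla2+/+ CR samples. For BMAd-Pnpla2-/- mice it was 4.30 to 7.23 under AL and 26.5 to 37.2 under CR. The CR and AL samples thus stood apart on this ratio. The same was so for Per3 over Arntl, at most 2.90 under AL and at least 6.51 under CR, and for Nr1d2 over Arntl, at most 4.76 and at least 7.64. It was also so for Dbp over Arntl, at most 6.62 and at least 8.42, although the levels of Dbp alone overlapped. Arntl alone already separated the diets, and 43.1% of all genes tested were higher over Arntl in every CR than in every AL sample, as were 8 of the other 9 clock genes (all but Npas2). This share over all genes was added after the ratios had been seen.

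**Figure D4:**
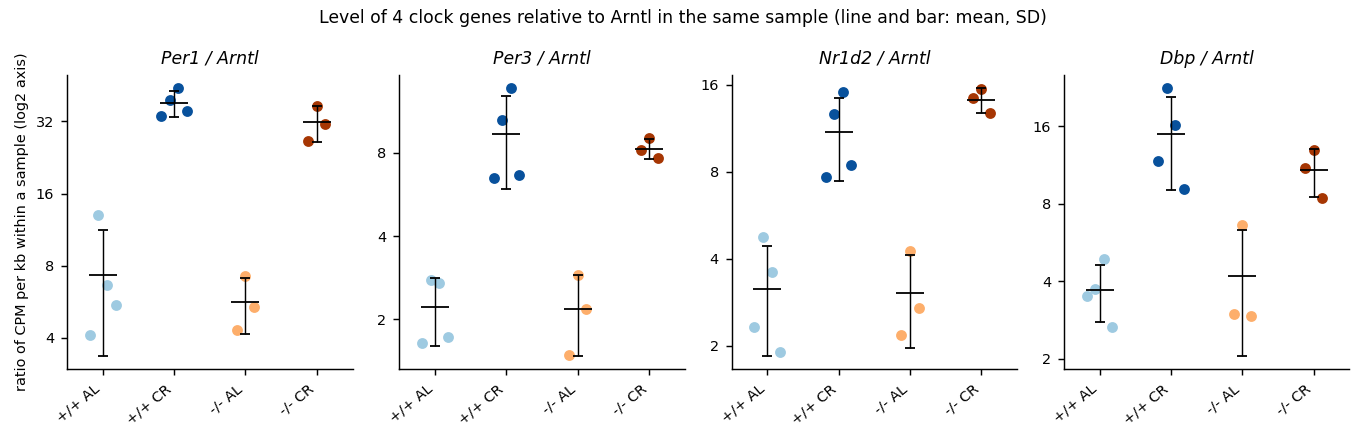
Ratio of Per1, Per3, Nr1d2 and Dbp to Arntl within each sample, from CPM per kilobase of exon (vertical axes, log2 scale), by group, with points for samples and the mean and SD. In all 4 panels the 7 CR samples lie above the 7 AL samples, most widely for Per1, where the highest AL ratio was 13.1 and the lowest CR ratio 26.5.

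Levels of the 10 genes can be set side by side per kilobase of exon. Per1 was highest in every group, at 14.1 ± 3.20 (SD) and 40.1 ± 3.37 CPM per kb in BMAd-Pnpla2+/+ mice with AL feeding and with CR, and at 11.4 ± 2.12 and 29.6 ± 7.09 CPM per kb in BMAd-Pnpla2-/- mice. With AL feeding its samples overlapped those of Nr1d1 in both genotypes and those of Dbp in BMAd-Pnpla2-/- mice, and with CR those of none. Npas2 was lowest in every group, with means of 0.275 to 0.480 CPM per kb, and its samples did not overlap those of the gene above it. In between, Cry1, Nr1d1, Dbp, Nr1d2 and Per2 overlapped their neighbours in the order in most groups, with means of 5.40 to 9.16 CPM per kb under AL and 9.02 to 19.2 under CR. Per3 followed them, at 4.38 to 4.503 CPM per kb under AL and 7.68 to 9.72 under CR. Arntl and Clock stood next to each other at the lower end. They overlapped under AL (2.19 ± 0.80 and 1.99 ± 0.27 CPM per kb in BMAd-Pnpla2+/+ mice, with BMAd-Pnpla2-/- values of 2.04 ± 0.17 and 1.87 ± 0.19). Under CR Clock was above Arntl without overlap (2.84 ± 0.49 and 1.06 ± 0.11 in BMAd-Pnpla2+/+ mice, with BMAd-Pnpla2-/- values of 2.76 ± 0.44 and 0.933 ± 0.17).

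Of 10 other transcription factors of the clock 9 were tested. In the average 7 rose and 1 fell, where 19.6% and 15.1% of all genes did so, and the median change was 0.86 on the log2 scale (0.02 over all genes). Tef and Hlf, the relatives of Dbp that bind the same D-box, rose by 1.003 ± 0.16 (adjusted p = 0.000876) and 1.25 ± 0.15 (adjusted p = 0.000133). Both passed in each genotype, and for both all CR samples were above all AL samples. Nfil3, the repressor that competes with them for the D-box, fell by 0.26 on the log2 scale (SE 0.09, adjusted p = 0.0383). Rora, which encodes a receptor that activates Arntl, rose (1.32 ± 0.19, adjusted p = 0.000407).

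Cry2, the second cryptochrome, rose by 0.61 ± 0.11 (adjusted p = 0.00141) and Ciart, a repressor of CLOCK and BMAL1, by 0.86 ± 0.15 (adjusted p = 0.00132). Of the DEC repressors, Bhlhe41 rose by 0.54 ± 0.16 (adjusted p = 0.0175), and the value of Bhlhe40 was 0.16 ± 0.11 (adjusted p = 0.292). Arntl2, the relative of Arntl, rose by 1.65 ± 0.27 (adjusted p = 0.000801), with a mean of 27.1 counts over the 14 samples, the opposite direction to Arntl itself. Without strand, the counts of Bhlhe41 and Bhlhe40 were 70.7% and 86.9% of the reverse-strand counts, and that of Ciart was 115.1%, so those 3 also share reads with the other strand. For Cry2 the value was 93.6%. Within the genotypes, 7 rose and 0 fell in BMAd-Pnpla2+/+ mice (15.1% and 10.9% of all genes) and 4 rose and 0 fell in BMAd-Pnpla2-/- mice (6.04% and 5.57%). The 4 were Arntl2, Rora, Tef and Hlf. Cry2 (0.44, adjusted p = 0.102), Ciart (0.63, adjusted p = 0.0937) and Bhlhe41 (0.30, adjusted p = 0.438) did not pass in BMAd-Pnpla2-/- mice.

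Of 11 genes for enzymes and partners that modify or degrade clock proteins, 1 rose and 1 fell in the average, against 34.7% of all genes called, and the median was 0.04. Fbxl21, a ligase for cryptochromes, rose by 1.53 ± 0.24 (adjusted p = 0.000675), with a mean of 22.6 counts over the 14 samples. Timeless, a partner of the clock proteins and of the replication fork, fell by 0.35 on the log2 scale (SE 0.12, adjusted p = 0.0413). Fbxl21 passed within each genotype. Timeless passed in BMAd-Pnpla2+/+ mice (-0.56, adjusted p = 0.0249) and not in BMAd-Pnpla2-/- mice (-0.14, adjusted p = 0.658). Its interaction of genotype and diet did not pass (adjusted p = 0.560). Of 8 genes known as rhythmic outputs in many tissues, 2 rose and 1 fell in the average, with a median of 0.15, a count near the 34.7% of all genes called. Nampt, the enzyme of NAD salvage, rose by 0.28 ± 0.10 (adjusted p = 0.0450) and Tspan4, a tetraspanin, by 0.42 ± 0.14 (adjusted p = 0.0285). The count of Tspan4 without strand was 86.9% of its reverse-strand count. Wee1, the inhibitor of entry into mitosis, fell by 0.30 on the log2 scale (SE 0.08, adjusted p = 0.00917). Within BMAd-Pnpla2+/+ mice Tspan4 (0.53, adjusted p = 0.0412) and Wee1 (-0.51, adjusted p = 0.00521) passed. Within BMAd-Pnpla2-/- mice 0 of the 8 outputs passed, with Tspan4 at 0.31 (adjusted p = 0.347) and Wee1 at -0.10 (adjusted p = 0.616). The interaction did not pass for Tspan4 (adjusted p = 0.771) or Wee1 (adjusted p = 0.396).

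Genes that answer to signals known to act on the clock were read from 3 lists. Of 11 genes induced by glucocorticoids, 10 rose and 0 fell in the average, against 19.6% and 15.1% of all genes, with a median of 1.42. Among them were Fkbp5, a chaperone of the glucocorticoid receptor (1.46 ± 0.12, adjusted p = 1.02e-05), the stress gene Ddit4 (2.11 ± 0.19, adjusted p = 4.13e-05), Tsc22d3, which encodes GILZ (1.45 ± 0.14, adjusted p = 5.63e-05), and the zinc finger gene Zbtb16 (1.90 ± 0.20, adjusted p = 0.000107). The other gene, Mt2, named here after its values were seen, had a mean of 9.79 counts a sample without strand, 3.30% of its reverse-strand count, and is not readable here. Of 8 genes that respond to temperature, 1 rose and 2 fell, again near the 34.7% of all genes called, with a median of -0.23. Cirbp, a cold-induced RNA-binding protein, rose by 0.39 ± 0.08 (adjusted p = 0.00279), and the chaperone genes Hspa8 and Hsph1 fell by 0.38 (SE 0.10, adjusted p = 0.00828) and by 0.44 (SE 0.15, adjusted p = 0.0328) on the log2 scale. Cirbp passed within each genotype, and Hspa8 and Hsph1 passed within BMAd-Pnpla2+/+ mice alone. Of 8 immediate early genes, which respond to handling and to serum, 1 rose (Fos, 0.59 ± 0.13, adjusted p = 0.00511) and 3 fell, against 19.6% and 15.1% of all genes, with a median of -0.24. Those 3 were Ier2 (-0.61 ± 0.09, adjusted p = 0.000534), Junb (-0.65 ± 0.12, adjusted p = 0.00161) and Atf3 (-0.92 ± 0.19, adjusted p = 0.00300). The median was 0.31 in BMAd-Pnpla2+/+ mice, where 1 rose (Fos) and 2 fell (Junb and Ier2), against 15.1% and 10.9% of all genes. In BMAd-Pnpla2-/- mice the median was -0.65, and 0 rose and 4 fell, among them Junb, Ier2 and Atf3, against 6.04% and 5.57%. For the interaction of genotype and diet 0 of the 8 passed.

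Markers of several cell types differed in level between the diets, as read from 12 lists of marker genes. Whether cell numbers or RNA per cell differed cannot be told from these levels. Of all genes, 19.6% were called higher and 15.1% lower in the average. In the average all 8 adipocyte markers rose, and their summed level ranged from 328 to 1727 CPM in the 7 AL and from 1222 to 4664 CPM in the 7 CR samples. All 6 pro-B and pre-B cell markers fell, from 101 to 335 CPM in the AL to 9.27 to 15.04 CPM in the CR samples. Of the markers of stromal cells 5 of 6 rose, of endothelial cells 4 of 5, of T cells 3 of 5, of osteoblasts 2 of 5 and of macrophages 2 of 5, and none of these lists had a marker that fell. Of the markers of neutrophils 7 of 8 fell, of megakaryocytes 4 of 4 and of mature B cells 2 of 5, with none that rose. The counts of 2 of 5 for osteoblasts, macrophages and mature B cells were near the 34.7% of all genes called. None of the 5 erythroid markers and none of the 4 tested skeletal muscle markers passed. Within BMAd-Pnpla2+/+ mice, 8 adipocyte, 4 stromal, 4 endothelial, 3 T cell, 2 osteoblast and 2 macrophage markers rose. There 6 pro-B and pre-B, 6 neutrophil and 3 megakaryocyte markers fell. Within BMAd-Pnpla2-/- mice, 7 adipocyte, 2 T cell, 1 stromal and 1 macrophage markers rose and 6 pro-B and pre-B markers fell. No endothelial, osteoblast, neutrophil or megakaryocyte marker passed there. Of all genes, 26% and 11.6% passed in these genotypes. The summed muscle markers were 34.6 and 114 CPM in BMAd-Pnpla2-/- CR replicates 2 and 3 and 6.63 to 25.9 CPM in the other 12 samples. No marker of adipocytes, stromal cells or endothelial cells was at 0 in any sample, and 1 of the 6 pro-B and pre-B markers, Rag2, was at 0 in 2 of the 4 BMAd-Pnpla2+/+ CR samples.

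Within the groups, some of the clock genes varied with the summed level of marker lists. Each gene's log2 CPM and each list's log2 summed level were taken as deviations from the group mean over the 14 samples, and their correlations were tested by 100000 permutations within groups, adjusted over the 120 pairs of gene and list. These pairs were chosen after values of the members had been seen. Of the 120 pairs, 25 passed on Pearson's r and 16 on Spearman's rho. How many of all genes pass with these lists was not computed. The counts are therefore not shown to be particular to clock genes. Nr1d1 went with stromal markers (r = 0.90, p = 0.00410, adjusted p = 0.0289, rho = 0.89, p = 0.00234, adjusted p = 0.0352) and with adipocyte markers (r = 0.89, p = 0.00318, adjusted p = 0.0238, rho = 0.86, p = 0.00369, adjusted p = 0.0376). Dbp did so too, with stromal (r = 0.88, p = 0.00184, adjusted p = 0.0184, rho = 0.84, p = 0.00214, adjusted p = 0.0352) and adipocyte markers (r = 0.85, p = 0.000550, adjusted p = 0.0184, rho = 0.89, p = 0.000350, adjusted p = 0.0210). Without the 2 samples farthest from the median marker level, these 4 values of r were 0.82, 0.84, 0.79 and 0.81. The stromal sum was highest of its group in BMAd-Pnpla2+/+ CR replicate 2 (13147 CPM) and BMAd-Pnpla2-/- AL replicate 2 (8041 CPM), which were also the highest of their groups in both genes, and lowest of its group in BMAd-Pnpla2+/+ CR replicate 4 (5956 CPM).

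Clock passed with 6 of the 12 lists, Per2 with 5, Per3 with 4 and Nr1d2 with 3. Per3 went against the erythroid sum (r = -0.93, p = 0.000590, adjusted p = 0.0184, rho = -0.91, p = 0.00134, adjusted p = 0.0352, and r = -0.86 without the 2 farthest samples). Arntl, Npas2, Per1 and Cry1 passed with none of the 12. For Per1 the r was highest with macrophage markers (r = 0.65, p = 0.0388, adjusted p = 0.1103, rho = 0.60, p = 0.0542, adjusted p = 0.151, and r = 0.46 without the 2 farthest samples), and it was 0.30 with adipocyte and 0.43 with stromal markers. For Arntl it was highest with mature B cell markers (r = 0.83, p = 0.0136, adjusted p = 0.0546, rho = 0.63, p = 0.0693, adjusted p = 0.170, and r = 0.59 without the 2 farthest). With pro-B and pre-B cell markers, whose sum was lower under CR as Arntl was, the r of Arntl was 0.73 (p = 0.182, adjusted p = 0.311, rho = 0.54, p = 0.231, adjusted p = 0.390, and r = 0.34 without the 2 farthest). With adipocyte and stromal markers it was 0.35 and 0.21. The part of cell makeup in the difference between diets was not tested.

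Among the 10 genes themselves, 45 pairs were correlated in the same way, and 6 passed on r and 3 on rho after adjustment over the 45. The share of pairs of other genes that would pass was not computed. Nr1d1 and Dbp were closest (r = 0.93, p = 0.000190, adjusted p = 0.00855, rho = 0.86, p = 0.00106, adjusted p = 0.0238, and r = 0.88 without the 2 samples farthest from the median of Nr1d1). Per2 and Per3 came next (r = 0.87, p = 0.00232, adjusted p = 0.0307, rho = 0.92, p = 0.000550, adjusted p = 0.0238, and r = 0.78 without the 2 farthest). Clock passed with Per3 (r = 0.84, p = 0.00273, adjusted p = 0.0307, rho = 0.82, p = 0.00273, adjusted p = 0.0410, and r = 0.90 without the 2 farthest). The other 3 that passed on r alone were Clock with Per2, Clock with Nr1d2, and Cry1 with Nr1d1, at r of 0.79 to 0.80. All 6 were positive. Arntl passed with none of the other 9, with r from -0.14 to 0.42, so that its opposite direction between diets was not matched by an inverse relation to the repressors within groups.

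**Figure D5:**
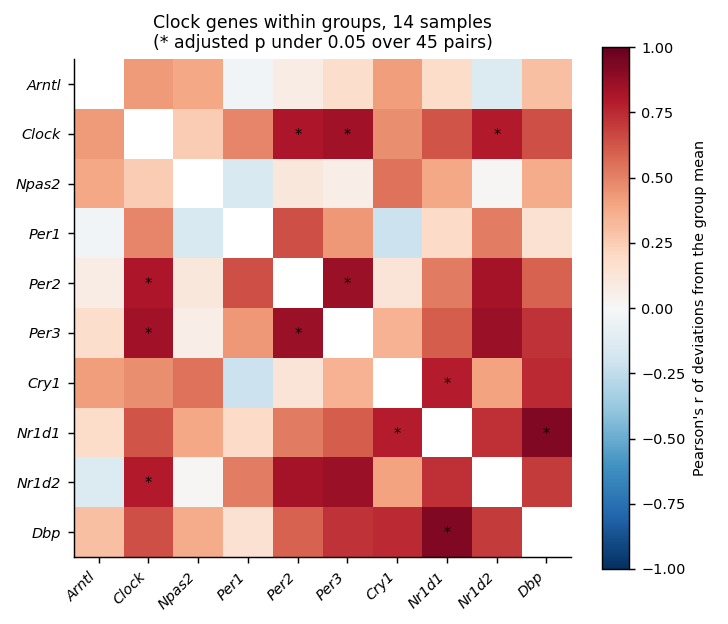
Pearson's r between the 10 clock genes over 14 samples, from log2 CPM as deviations from the group mean (color scale from -1 to 1, diagonal left blank), with a star for pairs whose adjusted p over 45 pairs was under 0.05. The 6 starred pairs join Clock, Per2, Per3 and Nr1d2 on one side and Cry1, Nr1d1 and Dbp on the other, and no pair with Arntl is starred.

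Among 13051 other genes that averaged 50 or more counts, the genes most like Dbp in their deviations over the 14 samples were Bckdha (r = 0.97), Kctd17 (0.96), Smad6 (0.95), Lfng (0.95), Rgs3 (0.94), Pitx1 (0.94), Shroom3 (0.94) and Id3 (0.94), and Nr1d1 stood at rank 17. The least like it were Nudt5 (-0.95), Piga (-0.93), Amd1 (-0.93) and Slc16a6 (-0.93). For Arntl they were Pde4b (r = 0.95), Cnp (0.94), Map4k1 (0.92), Arl5c (0.92), Slamf6 (0.90), Gne (0.90), Bach2 (0.90) and Cxxc5 (0.90), and, at the other end, Rpl28-ps1 (-0.89), Mpp6 (-0.88), Tpt1-ps3 (-0.87) and Gm6180 (-0.86). Of the other clock genes the closest to Arntl was Clock, at rank 1959. These values of r are descriptions over the same 14 samples, which also share depth and cell makeup.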

How the data were processed

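Per the labels the libraries were strand-specific, although 3 of them held no strand. The authors sequenced paired reads, checked them with FastQC 0.11.9, aligned them to mm10 with STAR (version not given in the sources used here) and deposited raw counts per gene, in a matrix and in 1 file per sample with unstranded, first-strand and reverse-strand counts. Unstranded counts totalled 18898324 to 21665553 per sample and were used throughout. edgeR 4.0.16 (R 4.3.3) fitted 1 model over the 4 groups with TMM scaling, edgeR's default filter on low counts and the quasi-likelihood test, adjusted over 17671 genes by the Benjamini-Hochberg method, and genes were called at an adjusted p under 0.05. CPM were computed from the scaled library sizes, and log2 CPM with a prior count of 2. DESeq2 1.42.0 was an alternative. The fit was tested on simulated data. SciPy 1.17.1 and NumPy 2.4.6 served for the correlations, where two-sided p-values came from 100000 permutations.

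The 10 genes and all lists were chosen with earlier results of these data known. The text names the 10 genes, the called genes of each list other than markers (up to 4 with the smallest p in the average), 7 other clock factors, Pnpla2, the 8 most and 4 least similar genes to Arntl and Dbp, and genes overlapping a member. 1 gene of the list of other clock factors is not reported here. Mt2 and Rag2 were named after their values were seen. Samples pooled 2 mice and replicate numbers come from the titles. Counting error was not compared with the spread between samples, and it weighs most for genes under about 50 counts. Exon lengths are merged GENCODE M21 exons.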

Additional observations from a re-analysis of the deposited data

How the results depend on the processing

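Of 360 values for the 10 genes under other counts, scaling, filter, samples or tool, 338 kept their direction and side of the threshold. The 360 include both comparisons of genotypes, in which none of the 10 genes had a call to lose. The 14 values that lost a call were all of CR against AL. Members called became 5, 3 and 2 with the study's criteria (BMAd-Pnpla2+/+, BMAd-Pnpla2-/-, average), 3 in BMAd-Pnpla2-/- mice with no filter on low counts, and 1 (Dbp) between genotypes under CR with the deposited matrix. All genes called under CR against AL became 1639, 624 and 1299 with those criteria, 2742 in BMAd-Pnpla2+/+ mice with the compared groups alone, and 3898 and 3147 in BMAd-Pnpla2-/- mice with the matrix and with DESeq2. Between genotypes under CR they were 1 with the criteria, 2451 with the matrix, 8 with total counts, 111 without the filter, 0 with the compared groups alone and 1638 with DESeq2, against 2. DESeq2 called 19 between genotypes fed AL and 65 for the interaction, and the matrix 678 for the interaction. The matrix holds unstranded counts in 1 group alone. Reverse-strand counts were run only for comparisons without the 3 libraries that lack strand. For the other changes the cause was not tested.

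Signs turned for Dbp under CR in BMAd-Pnpla2-/- mice (-0.33, matrix) and Clock between genotypes under CR (0.056, matrix). Between genotypes fed AL they turned for Nr1d2 with no filter (0.0079) and, with a replicate block, for Arntl (0.0061), Nr1d1 (-0.096) and Dbp (-0.098). Same-numbered samples did not deviate together (r from -0.50 to 0.49, median 0.015, in 19 pairs), so the numbers were not used to pair samples. The replicate block called 8, 5 and 9 of the 10 genes, losing Clock in BMAd-Pnpla2-/- mice (adjusted p = 0.0617) and Dbp in the average (adjusted p = 0.0522).

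Leaving out 1 sample gave 5 to 9 members called in BMAd-Pnpla2+/+ mice, 1 to 6 in BMAd-Pnpla2-/- mice (1 without AL replicate 1) and 6 to 10 in the average. All genes called ranged from 2228 to 6029, from 243 to 2435 and from 4454 to 6867, and from 0 to 2112 between genotypes under CR (2112 without BMAd-Pnpla2+/+ CR replicate 4). In BMAd-Pnpla2-/- mice the CR change ranged from -0.041 to 0.81 for Nr1d1 and from -0.0047 to 0.61 for Dbp. Between genotypes fed AL, ranges were -0.28 to 0.060 for Arntl, -0.14 to 0.083 for Npas2, -0.21 to 0.17 for Per2, -0.23 to 0.13 for Per3, -0.32 to 0.53 for Nr1d1, -0.25 to 0.14 for Nr1d2 and -0.30 to 0.32 for Dbp. Under CR they were -0.18 to 0.041 for Clock and -0.34 to 0.14 for Npas2. With 1 time point, 3 or 4 pools a group and bulk marrow, small differences were not detectable. Npas2, at 17 to 54 counts, was limited by depth as well.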
